A study of Mus musculus with 15 samples.

Results

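The liver makes most of the proteins that clot blood and most of those of the complement system, and this account follows the mRNAs of 34 such genes in the livers of mice on 5 diets. The members were taken by function, as all probe sets annotated to 8 clotting factors, the 3 chains of fibrinogen, 6 anticoagulants and proteins of fibrinolysis, and 17 complement genes. Of the 34 genes 32 were measured, with 44 of the 34945 probe sets that carry exactly 1 gene symbol, and they stood among 18193 genes tested. Complement C3 and C4b were not analysed here, because no probe set was listed for C3 and the only probe set for C4b carried a second gene, C4a.

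All 15 mice were male C57BL/6J, an inbred strain that becomes obese on fatty food, entered the experiment at 7 weeks of age and ate their diet for 9 weeks, and the liver RNA of each was hybridised to its own Affymetrix array, with 3 mice a group. The 3 coffee groups received a high-fat diet, with 60% of its energy as fat, that held 2% coffee powder. The powder was caffeinated in the HFCC group, decaffeinated in the HFDC group and unroasted green in the HFGC group. The green coffee was caffeinated as well. The HF group received the same high-fat diet without coffee, and the ND group a normal diet with 10% of its energy as fat. Whole liver was used, so that fewer cells of a type and less mRNA per cell cannot be told apart. The 5 measured hepatocyte markers lay between the 99.8th and the 100th percentile of all genes, and the members themselves between the 80.5th and the 99.9th.

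Clotting is a cascade of proteases that circulate as inactive precursors. Factor VII starts it with tissue factor, factors XII, XI and IX amplify it, factor X with its cofactor factor V activates prothrombin, and the thrombin so formed cuts fibrinogen into fibrin, which factor XIII cross-links. Protein C with its cofactor protein S, antithrombin and heparin cofactor II restrain the cascade, and plasmin, made from plasminogen and held back by alpha-2-antiplasmin, dissolves the clot. Complement is started by C1q or by mannose-binding lectins with their proteases, which act through C4 and C2, or by a further route that uses factor B. All routes pass through C3, are curbed by factor I, and end with C6, C8 and C9 in the membrane attack complex.

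The question for HF against ND was which of these mRNAs a fatty diet changed. The threshold for a call was an adjusted p under 0.05 in limma, with Benjamini-Hochberg adjustment over all genes, and all values below are log2 intensities or differences of them. Of the 32 measured members, 3 were higher in HF livers (9.38% of members, against 8.92% of all genes) and 1 was lower (3.12%, against 4.63%), so that the shares were near the background. At an unadjusted p under 0.05 there were 9 members (28.1%), against 28.8% of all genes. The calls were Proc, Serpinf2 and Mbl2, which were higher, and C8b, which was lower. The median difference of the 32 was 0.056 beside -0.002 for all genes. For 25 of them (78.1%) the 95% interval of the difference lay within 1.5-fold in either direction, a smaller share than the 87.7% of all genes.

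The question for the coffee groups was which mRNAs coffee changed on the fatty diet. In HFCC livers 0 members were called against HF, where 0.379% of all genes were higher and 1.26% lower, and 2 members (6.25%) had an unadjusted p under 0.05, against 18.4% of all genes. In HFDC livers 1 member, C8b, was higher (3.12%, against 1.31% of all genes) and 0 were lower (against 3.7%), with 10 members (31.2%, against 22.7%) at an unadjusted p under 0.05. In HFGC livers 0 members were called, beside 0.781% of all genes higher and 2.31% lower, and 8 members (25%, against 20.6% of all genes) had such an unadjusted p. With the coffee groups pooled, 2 members, C8b and F13b, were higher than in HF (6.25%, against 3.39% of all genes) and 0 were lower (against 6.88%), with 9 members (28.1%, against 25.5%) below the unadjusted threshold. Between coffee groups 0 members were called in limma, where 0.0934% of all genes were called for HFDC against HFCC, 0% for HFGC against HFCC and 0.0385% for HFGC against HFDC, and the members with an unadjusted p under 0.05 were 4 (12.5%, against 7.97% of all genes), 1 (3.12%, against 2.55%) and 3 (9.38%, against 6.74%) in these comparisons. Set against ND, the coffee groups together had 1 higher member, Mbl2 (3.12%, against 2.36% of all genes), and 0 lower members (against 1.73%), with 5 (15.6%, against 19.5%) below the unadjusted threshold.

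**Figure D1:**
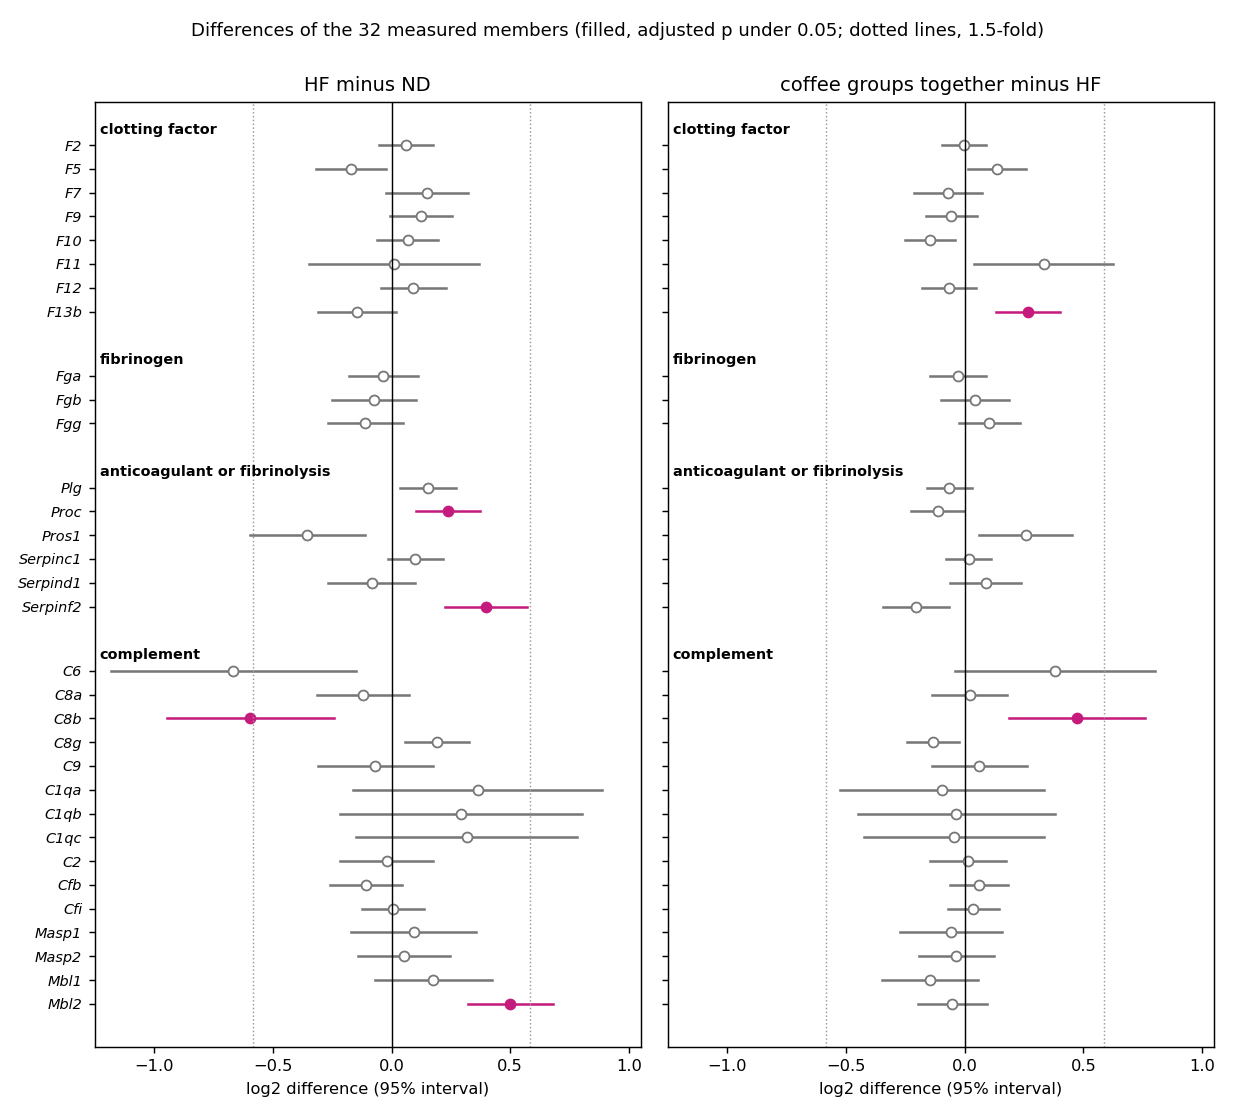
Log2 difference of each of the 32 measured members with its 95% interval, for HF minus ND and for the coffee groups together minus HF. Points are the fitted differences, filled where the adjusted p was under 0.05. Intervals lie within the dotted lines at 1.5-fold in 25 members for HF minus ND (78.1%, against 87.7% of all genes). For the coffee groups minus HF they do so in 29 (90.6%, against 94.6%).

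RNA quality differed with the groups that these comparisons use. The log2 difference between the 3' and the 5' control probe sets of Gapdh and beta-actin, which is larger when RNA is more degraded or less fully copied, was 0.93 ± 0.13 in HFCC, 0.93 ± 0.11 in HFDC, 0.82 ± 0.11 in HFGC, 1.22 ± 0.17 in HF and 0.88 ± 0.06 in ND livers (SD, n = 3 each). HF replicate 2 had the highest value of the 15 arrays, 1.41. All 3 HF arrays, the lowest at 1.08, lay above every other array, the highest of which was HFCC replicate 1 at 1.07. With the 3' minus 5' measure added to the model as a covariate, 0 of the 4 member calls for HF against ND and 0 of those for coffee against HF remained. Since the covariate nearly marks the HF arrays, the loss of a call does not tell the HF diet from RNA quality. Over all genes the covariate left 11 higher and 3 lower for HF against ND, from 1622 and 843, and 0 in each comparison of coffee with HF. Of the coffee calls C8b had a difference of 0.57 for HFDC against HF with the covariate and 0.72 without it, and for the coffee groups together 0.30 and 0.47, while that of F13b for the coffee groups together was 0.11 and 0.27. The comparisons of coffee with HF use the same 3 HF arrays as the comparison of HF with ND, so a low or high HF array enters both with opposite sign.

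As a group the clotting factors varied least. Their median SD within a diet group was 0.064, beside 0.114 for all genes, and 0 of 8 were called for HF against ND, with differences of -0.17 to 0.15. Prothrombin (F2) had the smallest spread of any member, an SD of 0.02 within groups, with values of 13.58 to 13.67 in the high-fat groups and 13.54 to 13.59 in ND. Factor IX (F9), factor X (F10) and factor XII (F12) had differences of 0.12, 0.07 and 0.09 for HF against ND, each with an adjusted p over 0.2.

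Factor V (F5) read 12.16, 11.93 and 11.99 in HF livers, against 12.22, 12.22 and 12.15 in ND livers. The lowest ND array lay just below the highest HF array, and the difference of -0.17 ± 0.07 (SE) had an adjusted p of 0.115. A second probe set for F5 moved the other way, by 0.19 ± 0.08, with an adjusted p of 0.13, so that no direction can be given for this gene. Factor VII (F7) read 10.23, 10.41 and 10.41 in HF livers and 10.22, 10.15 and 10.24 in ND livers, a difference of 0.15 ± 0.08 (SE) with an adjusted p of 0.245. Factor XI (F11) had the largest spread of the clotting factors, an SD of 0.239 within groups. Its difference for the coffee groups together against HF was 0.33 ± 0.14 (SE), with an adjusted p of 0.137.

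F13b encodes the carrier subunit of factor XIII, the enzyme that cross-links fibrin. It read 11.79, 11.88 and 11.74 in HFCC, 11.68, 11.72 and 11.72 in HFDC, and 11.76, 11.73 and 11.82 in HFGC livers, against 11.67, 11.33 and 11.48 in HF livers. Each of the 9 coffee arrays lay above each HF array, the closest being HFDC replicate 1 and HF replicate 1. The coffee groups together were higher by 0.27 ± 0.06 (SE), or 1.20-fold, with an adjusted p of 0.0191. For the single groups the differences were 0.31 (HFCC), 0.21 (HFDC) and 0.28 (HFGC), with adjusted p of 0.0556, 0.118 and 0.0626. ND livers read 11.63, 11.69 and 11.60, between the middle and the highest HF array apart from replicate 2, which lay just above. The call was lost without HF replicate 2, where the difference was 0.19 with an adjusted p of 0.166, and without HF replicate 3 (0.26, adjusted p = 0.093).

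The 3 chains of fibrinogen, which thrombin turns into the fibres of a clot, did not pass any of the tests. In each of the 9 comparisons the 95% interval of all 3 chains lay within 1.5-fold, as it did for 87.7% to 96.9% of all genes. Fga read 13.29, 13.36 and 13.28 in HF livers, against 13.36, 13.29 and 13.38 in ND livers. Fgb read 13.81, 13.71 and 13.72 in HF livers, against 13.90, 13.88 and 13.69 in ND livers. For Fgg the values were 13.70, 13.63 and 13.61 in HF livers, against 13.81, 13.81 and 13.64 in ND livers. The groups overlapped for every chain, with differences of -0.03 ± 0.07, -0.08 ± 0.08 and -0.11 ± 0.07 (SE) and adjusted p of 0.788, 0.594 and 0.348. For the coffee groups together against HF the differences were -0.03, 0.04 and 0.10, and HFDC livers had the highest group mean of Fgb and Fgg, 13.84 ± 0.16 and 13.80 ± 0.11 (SD, n = 3), with the widest spread.

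The genes of the chains lie next to each other on chromosome 3 in the order Fgg, Fga, Fgb. Fgb and Fgg deviated together from their group means over the 15 arrays (r = 0.861, Spearman's rho = 0.771, adjusted p = 0.0247 and 0.0309 over 16 pairs of subunits, exact permutation within diet groups, two-sided), and r was 0.809 without the 2 arrays farthest from the median of Fgb. Fga followed them less closely, with r of 0.396 with Fgb and 0.552 with Fgg, neither of which passed the test. The 250 bases before each start site are shown since the chains form 1 protein and lie in 1 cluster; they come from RefSeq on GRCm38.p6, with bases that match a searched motif in capitals.
Fga promoter, chr3:83025903-83026152, plus strand: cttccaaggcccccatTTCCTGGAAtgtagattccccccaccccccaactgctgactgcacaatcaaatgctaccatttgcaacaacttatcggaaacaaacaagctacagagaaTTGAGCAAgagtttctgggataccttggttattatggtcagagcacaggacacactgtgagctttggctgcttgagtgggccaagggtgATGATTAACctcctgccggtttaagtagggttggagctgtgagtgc
Fgb promoter, chr3:83049864-83050113, minus strand: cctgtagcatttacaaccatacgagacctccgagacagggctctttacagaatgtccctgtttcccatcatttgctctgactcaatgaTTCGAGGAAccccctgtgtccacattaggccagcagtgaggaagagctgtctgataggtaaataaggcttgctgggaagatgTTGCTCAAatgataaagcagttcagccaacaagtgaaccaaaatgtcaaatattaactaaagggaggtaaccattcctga
Fgg promoter, chr3:83007474-83007723, plus strand: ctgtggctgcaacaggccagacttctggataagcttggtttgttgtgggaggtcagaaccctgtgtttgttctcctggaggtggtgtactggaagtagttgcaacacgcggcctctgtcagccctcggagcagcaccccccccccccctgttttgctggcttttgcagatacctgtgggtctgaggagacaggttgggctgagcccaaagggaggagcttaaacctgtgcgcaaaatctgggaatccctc
Motifs were searched on both strands as TTCNNNGAA (STAT factors), TTGCNNAA (C/EBP factors), GTTAATNAT (HNF1) and CAAAGTCCA (HNF4A). In the Fga window the capitals mark, from left to right, a match to the STAT, the C/EBP and the HNF1 letters, and in the Fgb window a match to the STAT and the C/EBP letters. Of 26 member promoters in the RefSeq table, 6 (23.1%) held the C/EBP letters, 6 (23.1%) the STAT letters, 2 (7.69%) the HNF1 letters and 0 the HNF4A letters. Among all 27025 promoters of this length the shares were 9.55%, 7.18%, 0.781% and 0.381%. The HNF1 matches were in Fga and F13b. A match describes the letters only.

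Of the 6 anticoagulants and proteins of fibrinolysis, 2 rose in HF livers (33.3%, against 8.92% of all genes) and 0 fell (against 4.63%). With 6 genes this share rests on 2 calls, Serpinf2 and Proc. Serpinf2, which encodes alpha-2-antiplasmin, the inhibitor of plasmin, read 12.34, 12.59 and 12.46 in HF livers, against 11.92, 12.13 and 12.14 in ND livers. All HF arrays lay above all ND arrays, and the difference was 0.40 ± 0.08 (SE), or 1.32-fold, with an adjusted p of 0.00713. It kept its call whichever array was left out, but not when the HF and ND arrays were fitted alone (adjusted p = 0.067). In the coffee groups Serpinf2 read 12.40, 12.28 and 12.27 in HFCC, 12.24, 12.30 and 12.15 in HFDC, and 12.20, 12.23 and 12.24 in HFGC livers. These 9 values lay above all ND arrays, and for HFDC and HFGC below all HF arrays. The differences from HF were -0.14 (HFCC), -0.24 (HFDC) and -0.24 (HFGC), and -0.21 ± 0.07 (SE) together with an adjusted p of 0.0583, so that none was called.

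Proc encodes protein C, the protease that inactivates factors V and VIII. It read 12.36, 12.51 and 12.45 in HF livers, against 12.26, 12.21 and 12.14 in ND livers. The groups did not overlap, and the difference of 0.24 ± 0.06 (SE), or 1.18-fold, had an adjusted p of 0.0236. The coffee arrays lay between 12.28 and 12.41, above all ND arrays, and the coffee groups together differed from HF by -0.11 ± 0.05 (SE), with an adjusted p of 0.177. With the HF and ND arrays fitted alone its adjusted p was 0.144. The call for HF against ND was also lost without HF replicate 2 (0.20, adjusted p = 0.0959), HF replicate 3 (0.23, adjusted p = 0.0734) or ND replicate 3 (0.20, adjusted p = 0.0755).

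Pros1 encodes protein S, the cofactor of protein C. It read 8.73, 8.35 and 8.65 in HF livers, against 8.86, 9.04 and 8.90 in ND livers. No HF array reached the lowest ND array, but the difference of -0.35 ± 0.11 (SE) had an adjusted p of 0.0502 and was not called. The coffee groups together stood 0.26 ± 0.09 (SE) from HF, with an adjusted p of 0.0897. Plasminogen (Plg) read 13.84, 13.90 and 13.83 in HF livers, against 13.68, 13.73 and 13.70 in ND livers. Its arrays did not overlap either, and the difference of 0.16 ± 0.06 (SE) had an adjusted p of 0.0769. Antithrombin (Serpinc1) and heparin cofactor II (Serpind1), both inhibitors of thrombin, had differences of 0.10 and -0.08 for HF against ND, with adjusted p of 0.24 and 0.569.

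**Figure D2:**
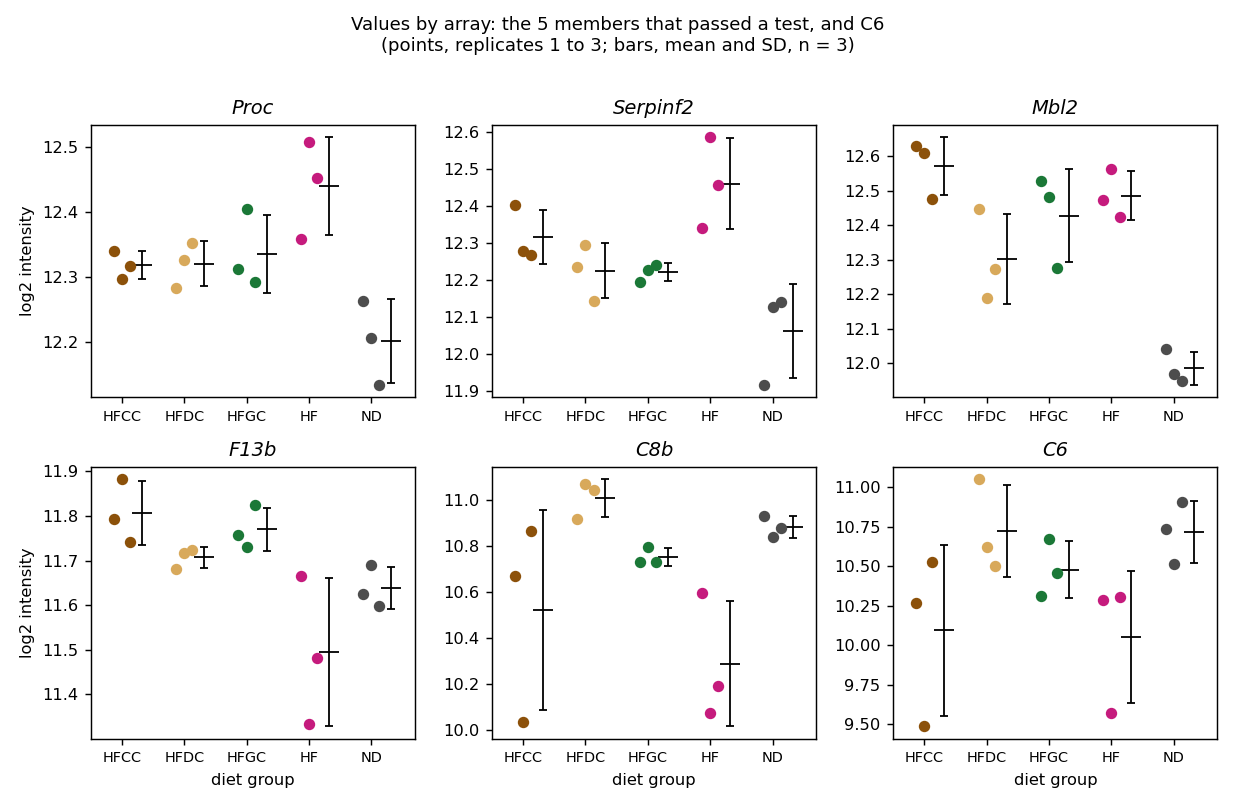
Log2 intensity in each array of the 5 members called in any comparison and of C6, by diet group, with 3 arrays a group; bars give the mean and SD. Mbl2 is lower in ND than in each other group, HF has the lowest group mean of F13b, C8b and C6, and 1 HFCC array of C8b and C6 lies far below the other 2.

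The complement genes were the most variable members, with a median SD within groups of 0.152, up to 0.36 for C1qa. Of 15 measured, 1 rose (6.67%, against 8.92% of all genes) and 1 fell (6.67%, against 4.63%) in HF livers. For 9 of 15 (60%) the interval lay within 1.5-fold, against 87.7% of all genes. Mbl2 encodes mannose-binding lectin C, a plasma lectin that binds sugars on microbes and starts the lectin pathway. It read 12.47, 12.56 and 12.42 in HF livers, against 12.04, 11.97 and 11.95 in ND livers. The groups stood well apart, and the difference of 0.50 ± 0.08 (SE), or 1.42-fold, had an adjusted p of 0.00319. The coffee groups lay near HF, with values of 12.63, 12.61 and 12.48 in HFCC, 12.45, 12.19 and 12.27 in HFDC, and 12.53, 12.48 and 12.28 in HFGC livers. Each of them lay above each ND array, and the coffee groups together were higher than ND by 0.45 ± 0.07 (SE), or 1.37-fold, with an adjusted p of 0.00331. Against HF their difference was -0.05 ± 0.07 (SE), with an adjusted p of 0.696. The calls against ND held whichever array was left out, and the call of the coffee groups also held with the 3'-to-5' covariate. The coffee groups and ND had similar values of that measure, so the covariate could change this comparison little. Over all genes the comparison had 474 higher and 333 lower calls with the covariate, beside 430 and 314 without it. Mbl1, the other mannose-binding lectin of the mouse, had a difference of 0.18 ± 0.12 (SE) for HF against ND, with an adjusted p of 0.333.

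C8b encodes the beta chain of C8, a part of the membrane attack complex. It read 10.59, 10.08 and 10.19 in HF livers, against 10.93, 10.84 and 10.88 in ND livers. All HF arrays lay below all ND arrays, and the difference of -0.60 ± 0.16 (SE), or 1.51-fold lower, had an adjusted p of 0.0279. In HFDC livers it read 10.91, 11.07 and 11.04, above all HF arrays, by 0.72 ± 0.16 (SE), or 1.65-fold, with an adjusted p of 0.0303. In HFGC livers the values were 10.73, 10.80 and 10.73, a difference from HF of 0.46 ± 0.16 (SE) with an adjusted p of 0.121. HFCC livers read 10.67, 10.03 and 10.86, so that replicate 2 was as low as the HF arrays while the other 2 were higher. The coffee groups together were higher than HF by 0.47 ± 0.13 (SE), or 1.39-fold, with an adjusted p of 0.0378, and they differed from ND by -0.12 ± 0.13 (SE), with an adjusted p of 0.677.

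The calls of C8b moved with the arrays. For HF against ND the call was lost without HF replicate 2 (-0.49, adjusted p = 0.122), HF replicate 3 or any 1 of the 3 ND arrays. It held with the HF and ND arrays fitted alone. For HFDC against HF it was lost in a fit of those 6 arrays alone (adjusted p = 0.0835), without HF replicate 2 (0.61, adjusted p = 0.138), HF replicate 3 or any 1 of the 3 HFDC arrays. For the coffee groups together it was lost in a fit without the ND arrays (adjusted p = 0.0514) and in 9 of 15 fits that left out an array, among them without HF replicate 2 (0.37, adjusted p = 0.239) and HF replicate 3 (0.43, adjusted p = 0.171). The direction of all 3 calls was kept in each of these fits.

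C6, another part of the attack complex, had the largest difference of any member for HF against ND without being called. It read 10.29, 9.57 and 10.31 in HF livers, against 10.74, 10.52 and 10.90 in ND livers. The arrays did not overlap, but HF replicate 2 lay far below the others, and the difference of -0.67 ± 0.24 (SE) had an adjusted p of 0.0802. In HFDC livers C6 read 11.05, 10.62 and 10.50, a difference from HF of 0.67 ± 0.24 (SE) with an adjusted p of 0.113. HFCC livers read 10.27, 9.49 and 10.53 and HFGC livers 10.31, 10.67 and 10.46, with differences from HF of 0.04 and 0.42. HFCC replicate 2 and HF replicate 2 were thus the 2 lowest arrays of both C6 and C8b. Over the 15 arrays C6 and C8b deviated together from their group means with r = 0.724 and rho = 0.443 (adjusted p = 0.254 and 0.524, exact permutation), and r was 0.395 without the 2 farthest arrays, so that the relation rests on those.

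The other chains of C8 were called in none of the 9 comparisons. C8a, the neighbour of C8b on chromosome 4 and the chain that inserts into membranes, had a difference of -0.12 ± 0.09 (SE) for HF against ND, with an adjusted p of 0.415. It was highest in HFDC livers, at 12.77, 12.79 and 12.93, against 12.50, 12.25 and 12.51 in HFCC livers, a separation noticed after the values were seen. The difference of HFDC from HFCC was 0.41 ± 0.09 (SE) and that of HFGC from HFDC -0.36 ± 0.09 (SE), with adjusted p of 0.114 and 0.301. C8g, the third chain, had a difference of 0.19 ± 0.06 (SE) for HF against ND, opposite in sign to C8b, with an adjusted p of 0.0551. C9, which forms the wall of the pore, had a difference of -0.07 ± 0.11 (SE), with an adjusted p of 0.746.

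The 3 chains of C1q, the recognition protein of the classical pathway, which in many tissues comes from macrophages rather than from the cells that make other complement proteins, varied widely between mice of the same diet. C1qa read 9.53, 9.85 and 9.98 in HF livers, against 9.83, 9.58 and 8.86 in ND livers. Those groups overlapped, and the differences of C1qa, C1qb and C1qc for HF against ND were 0.36 ± 0.25, 0.29 ± 0.24 and 0.32 ± 0.22 (SE), with adjusted p of 0.355, 0.45 and 0.36. The other probe sets of C1qb, both of a type that can bind several transcripts, gave 0.42 and 0.63 for HF against ND, and -0.28 and -0.49 for the coffee groups together against HF, beside -0.04 for the one used. None of them was called. HFCC replicate 3 was the highest array of all 3 chains, at 10.34, 10.58 and 9.53, and ND replicate 3 the lowest, at 8.86, 9.10 and 8.12. The chains deviated together from their group means, with r of 0.957 for C1qa and C1qb, 0.963 for C1qa and C1qc and 0.981 for C1qb and C1qc, each with an adjusted p of 0.00549 for r and 0.00891 for rho (exact permutation within diet groups). Without the 2 farthest arrays r was still 0.922, 0.935 and 0.959. Their genes lie side by side on chromosome 4.

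**Figure D3:**
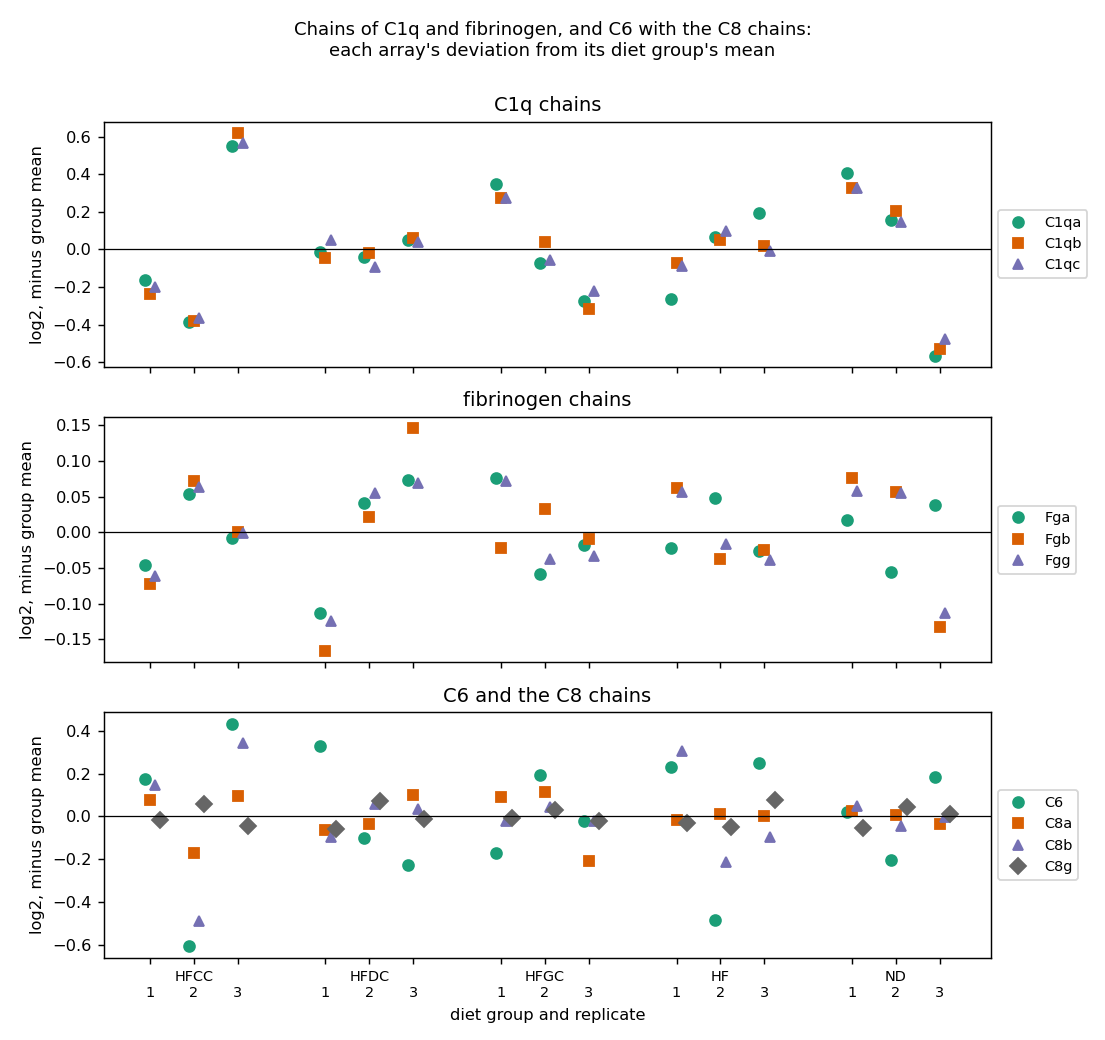
Deviation of each array from the mean of its diet group, in log2 units, for the chains of C1q, the chains of fibrinogen, and C6 with the C8 chains; the 3 replicates of each group are drawn side by side. The C1q chains lie close together in most arrays, Fgb and Fgg move together more than either does with Fga, and C6 and C8b share the low array HFCC replicate 2.

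Among 8 markers of Kupffer cells, the resident macrophages of the liver, and of other macrophages, 0 passed the test in HF against ND or in the coffee groups together against HF. Their summed intensity was 4538 to 9262 in HFCC, 5603 to 6826 in HFDC, 4459 to 6193 in HFGC, 6084 to 6791 in HF and 4049 to 6046 in ND livers, widest in the group that holds the highest C1q array. Whether the number of macrophages moved C1q was not tested.

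None of the starting enzymes and regulators of complement was called as a gene. C2, factor B (Cfb) and factor I (Cfi) had differences of -0.02, -0.11 and 0.01 for HF against ND, and Masp1 and Masp2, the proteases that act with the lectins, of 0.09 and 0.05, each with an adjusted p over 0.3. The other probe sets of C2 gave 0.10 and 0.26, opposite in sign to the one used, and were not called. Masp1 has 5 probe sets, 1 of which was called. That probe set averaged 8.87 in HF livers, against 8.43 in ND livers, a difference of 0.44 ± 0.10 (SE) with an adjusted p of 0.0113. It averaged 8.45 in HFGC livers, lower than in HF by -0.43 ± 0.10 (SE) with an adjusted p of 0.0329, and was also called in the coffee groups together (-0.33 ± 0.08, adjusted p = 0.0214). The brightest Masp1 probe set, used for the gene, did not show this, with 0.09 for HF against ND and 0.01 for HFGC against HF. The probe sets of Masp1 were not told apart by transcript here. The calls of the dimmer one were not refitted with the 3'-to-5' covariate or with arrays left out.

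With every probe set tested on its own, 4 of the 44 were higher and 1 lower in HF livers against ND, where 7.24% and 4.79% of all probe sets were called. In the coffee groups together against HF 2 were higher and 2 lower, beside 3.51% and 5.69% of all probe sets. The second lower one was a dimmer probe set of F10, factor X, with -0.24 and an adjusted p of 0.0318. The other 2 probe sets of F10 had differences of -0.22 and -0.14 in the same direction, with adjusted p of 0.0526 and 0.0869. The called probe set was not refitted with the 3'-to-5' covariate or with arrays left out. For the probe set used for the gene, the covariate gave -0.066 in limma, with an adjusted p of 0.777.

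**Figure D4:**
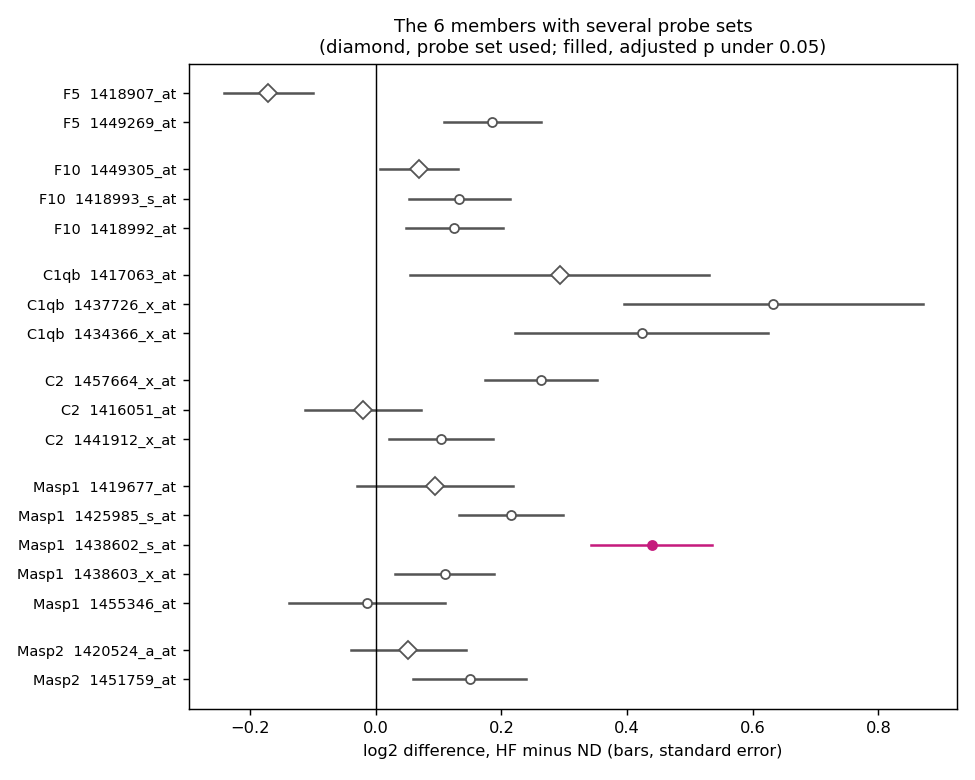
Log2 difference of HF minus ND, with its standard error, for every probe set of the 6 members that have several; diamonds are the probe sets used for the gene, and filled symbols had an adjusted p under 0.05. The 2 probe sets of F5 lie on opposite sides of 0, and 1 of 5 probe sets of Masp1 was called.

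Other genes of the same pathways were taken as lists, whose counts stand beside the shares of all genes given above, 8.92% higher and 4.63% lower for HF against ND and 3.39% and 6.88% for the coffee groups together against HF. Every call of a list gene named below for HF against ND, and every one for coffee against HF, was lost with the 3'-to-5' covariate. That covariate nearly marks the HF arrays, so the loss does not tell the HF diet from RNA quality. Of 26 other genes of coagulation and fibrinolysis 23 were measured, with a median difference of 0.037, and 3 rose and 0 fell in HF livers against ND. They were Vwf (0.46 ± 0.14, adjusted p = 0.0475), the carrier of factor VIII, which endothelium makes, Proz (0.28 ± 0.06, adjusted p = 0.0115), the cofactor of an inhibitor of factor X, and Vkorc1 (0.24 ± 0.07, adjusted p = 0.0384), which recycles the vitamin K that several clotting factors need. Vwf was called in only 3 of 15 fits that left out an array, Vkorc1 in 9 and Proz in 14. Vwf and Proz lost their call with probe sets averaged per gene. Against ND, Proz was also the 1 gene of this list called higher in the coffee groups together, beside 2.36% of all genes. None was lower, beside 1.73%. That call of Proz held in 14 of 15 fits that left out an array and with the covariate, which could change this comparison little. In the coffee groups together against HF 0 were higher and 1, F13a1, the catalytic subunit of factor XIII, was lower, by -0.27 ± 0.08 (SE) with an adjusted p of 0.0457, at an intensity near the 17th percentile of all genes, and was called in only 2 of 15 fits that left out an array.

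Of 23 other complement genes 19 were measured, with a median difference of 0, and 3 rose and 0 fell in HF livers. These were Colec11 (0.55 ± 0.15, adjusted p = 0.0236), a further lectin of the pathway that Mbl2 starts, Cd59a (0.28 ± 0.08, adjusted p = 0.0388), which blocks the attack complex on the body's own cells, and Cpn1 (0.29 ± 0.08, adjusted p = 0.0325), a subunit of carboxypeptidase N, which trims the peptides C3a and C5a. For HF against ND, Colec11, Cd59a and Cpn1 each kept their call in 11 of 15 fits that left out an array. Those of Cd59a and Cpn1 were lost with probe sets averaged per gene. Among the other coagulation and complement genes Cpn1 was the 1 gene called against HF in every coffee group. It read 10.29, 10.25 and 10.22 in HFCC, 10.42, 10.22 and 10.35 in HFDC, and 10.28, 10.30 and 10.23 in HFGC livers, against 10.50, 10.82 and 10.71 in HF livers, with differences of -0.42, -0.35 and -0.41 and adjusted p of 0.0325, 0.0328 and 0.0265. ND livers read 10.41, 10.45 and 10.31. Each single-group call of Cpn1 held in 10 of 15 fits that left out an array. Each was lost with probe sets averaged per gene and with the compared groups fitted alone. Its call in the coffee groups together (-0.39 ± 0.07, adjusted p = 0.00728) was lost without HF replicate 2 or HF replicate 3, and with averaged probe sets. C1s1, a protease that acts with C1q, and C3ar1, the receptor of C3a, were higher in the coffee groups together than in HF (0.23 and 0.29, adjusted p = 0.0338 and 0.0243), but both calls were lost without HF replicate 2 or HF replicate 3, and C1s1 kept its call in 9 of 15 fits that left out an array. The call of C3ar1 was also lost with probe sets averaged per gene.

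Of 7 measured transcription factors of hepatocytes 2 rose and 0 fell in HF livers, Cebpb (0.61 ± 0.10, adjusted p = 0.00264) and Stat3 (0.46 ± 0.13, adjusted p = 0.0345), both of which act in the acute phase response. The median difference of the 7 was 0.197, and the call of Stat3 was lost with probe sets averaged per gene. In the coffee groups together against ND, Cebpb was the 1 factor called higher and none was lower, beside 2.36% and 1.73% of all genes. That call of Cebpb held whichever array was left out and with the covariate, which could change this comparison little. Cebpa, which keeps hepatocytes differentiated, was lower than HF in every coffee group, with differences of -0.30 (HFCC), -0.25 (HFDC) and -0.28 (HFGC) and adjusted p of 0.0372, 0.0406 and 0.034. These calls held in 9, 7 and 10 of 15 fits that left out an array and were lost with cyclic loess and with the compared groups fitted alone. Together the difference was -0.28 ± 0.05 (SE), with an adjusted p of 0.00926, and this call was lost without HF replicate 2 or HF replicate 3. Of 11 acute phase proteins 0 rose and 1 fell in HF livers, Orm1 (-0.50 ± 0.13, adjusted p = 0.0242), while Lcn2, Saa1 and Saa3 had differences of 1.19, 0.84 and 0.74 with adjusted p of 0.139, 0.259 and 0.0721. The median of this list was 0.105. In the coffee groups together against HF 0 of the 11 passed the test.

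Markers of other cells also differed between HF and ND. Of 5 endothelial markers 1 rose in HF livers, Stab2, and 0 fell, beside 8.92% of all genes higher and 4.63% lower. The median difference of the 5 was 0.009, from -0.58 (Lyve1) to 0.49 (Stab2). Of 6 markers of stellate cells and fibroblasts 2 rose, Reln and Col3a1, with a median of 0.192 over the list. The call of Col3a1 was lost with probe sets averaged per gene. That of Reln held in 13 of 15 fits that left out an array and was lost with the compared groups fitted alone. Of 3 markers of neutrophils and monocytes 2 rose, S100a8 (1.51 ± 0.29, adjusted p = 0.00571) and S100a9. S100a8 lay at the 31.8th percentile of all genes in intensity. The call of S100a9 held in 12 of 15 fits that left out an array and was lost with the compared groups fitted alone. The summed intensity of the last list was 240.7 to 376.3 in HF and 160.1 to 202.4 in ND livers, and that of the endothelial list 2133 to 2336 in HF and 1737 to 2523 in ND livers. For stellate cells and fibroblasts the sums were 3507 to 4545 in HF and 3174 to 3579 in ND livers. None of the 5 hepatocyte markers, the 4 bile duct markers or the 4 lymphocyte markers passed the test in HF against ND. With all 3 coffee groups combined, Stab2 was lower than in HF (-0.36 ± 0.07, adjusted p = 0.00916), as it was in HFDC and HFGC livers (-0.39 and -0.40), and the combined call was lost without HF replicate 2 or HF replicate 3. The endothelial list as a whole had a median of 0.144 in the combined comparison, up to 0.28 for Lyve1. Against ND the coffee groups together had higher S100a8 (0.94 ± 0.24, adjusted p = 0.0373) and Col3a1 (0.48 ± 0.13, adjusted p = 0.0496), called in 8 and 2 of 15 fits that left out an array. The part of other cells in the members' differences was not tested.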

How the data were processed

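Liver RNA of 15 mice, 3 in each of 5 diet groups, was hybridised to Affymetrix Mouse Genome 430 2.0 arrays. Robust multi-array averaging (RMA) by the authors gave the deposited intensities, which are on a linear scale, and the medians of the arrays were 48.45 to 49.95. Which software ran it is not given in the sources. The log2 of each value was taken here, with no further normalization, and 0 columns were left out. Of 45101 probe sets 34945 carried 1 symbol in the platform annotation, and each of 18193 genes was represented by the brightest of its probe sets over the arrays, those ending in _x_at only where there was no other. Such probe sets can bind several transcripts.

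All arrays entered 1 limma model (version 3.58.1, R 4.3.3) with 5 group means and 10 residual degrees of freedom, with Benjamini-Hochberg adjustment across the genes and a call at an adjusted p under 0.05. The procedure was tested on simulated data. The smallest p of an exact two-sided permutation test of 3 arrays against 3 is 0.1, and the number of arrays limits the precision. The p-values measure the spread between mice of 1 feeding experiment.

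The members, the gene lists and the markers were chosen with earlier results of these data known. Values of every array are given for the members called in any comparison and for the 2 members of each role with the largest uncalled difference in HF against ND. Relations between subunits were computed for 16 pairs on deviations from the group means, over all 7776 arrangements within diet groups. The alternatives were probe sets averaged or tested singly, cyclic loess, genes of at least median level, an offset of 32, a fit of the compared groups only, a replicate block, eBayes with trend and robust, a 1.5-fold minimum, the 3' minus 5' covariate and leaving out each array.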

Additional observations from a re-analysis of the deposited data

How the results depend on the processing

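The number of members called moved with the processing, and the cause was not tested. For HF against ND it was 4 in the reported setting and 7 with genes at or above the median level, with cyclic loess, with an offset of 32 and with eBayes with trend and robust, 2 with the compared groups only, 1 with at least 1.5-fold as well and 0 with the 3' minus 5' covariate. Over all genes 1622 were higher and 843 lower in the reported setting. In the order of these alternatives the counts began with 1663 and 638, 1224 and 1074, 1711 and 755, and 1617 and 852. The rest gave 377 and 104, 252 and 122, and 11 and 3. For HFCC against HF it was 0, and 1 with cyclic loess, genes at or above the median level, the offset of 32, or trend and robust. Over all genes 69 were higher and 229 lower in the reported setting. In the same order the alternatives gave 95 and 98, 208 and 619, 85 and 464, and 66 and 228. For HFDC against HF it was 1, with 2 when probe sets were averaged per gene, with genes at or above the median level or with the offset, and 0 with the compared groups only or the covariate. Over all genes 239 were higher and 674 lower in the reported setting. In the same order the alternatives gave 144 and 414, 303 and 1028, 226 and 918, 0 and 5, and 0 and 0. For HFGC against HF it was 0, with 1 for genes at or above the median level and for cyclic loess, and 2 for the offset. Over all genes 142 were higher and 421 lower in the reported setting. In the same order the alternatives gave 260 and 736, 215 and 218, and 156 and 625. For the coffee groups together against HF it was 2, with 4 for genes at or above the median level, 5 for the offset, and 0 with at least 1.5-fold as well or with the covariate. Over all genes 617 were higher and 1251 lower in the reported setting. In the same order the alternatives gave 655 and 1546, 609 and 1523, 44 and 35, and 0 and 0. For the coffee groups together against ND it was 1, with 2 for the offset and 0 with at least 1.5-fold as well. Over all genes 430 were higher and 314 lower in the reported setting, 406 and 314 with the offset, and 112 and 39 with at least 1.5-fold as well.

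Leaving out 1 array gave 2 to 7 calls for HF against ND, 0 to 1 for HFCC, 0 to 3 for HFDC, 0 to 4 for HFGC and 0 to 5 for the coffee groups together against HF, 1 to 1 against ND, and 0 to 0 between coffee groups. HF replicate 1 set the upper ends against HF: without it 7 members were called for HF against ND and 5 for the coffee groups together against HF, while leaving out HF replicate 2 gave 2 and 0, likewise 2 and 0 without HF replicate 3. With the replicate block, 5 members were called for HF against ND, 0, 1 and 0 for HFCC, HFDC and HFGC against HF, 2 and 1 for the coffee groups together against HF and ND, and 0 between coffee groups. Over all genes the calls moved as well: for HF against ND 1622 were higher and 843 lower in the reported setting, 377 and 104 with the compared groups only, and 693 and 296 without HF replicate 2, and for the coffee groups together against HF 617 and 1251, against 0 and 4 without HF replicate 2. Without HF replicate 1 the 2 comparisons had 1943 and 1189, and 1075 and 1663. Without HF replicate 3 they had 811 and 350, and 13 and 51. For HFCC, HFDC and HFGC against HF the counts without HF replicate 1 were 687 and 1043, 803 and 1308, and 751 and 1109. Whether the replicate numbers pair the arrays was not settled. Deviations of same-numbered arrays from their group means correlated between -0.276 and 0.227, and 7 of 15 arrays correlated best with their own number. The correlation was over 0.1 in 3 of 10 pairs for replicate 1, 3 of 10 for replicate 2 and 0 of 10 for replicate 3. No call changed direction under these alternatives. With the covariate the calls of HF against ND had differences of 0.19 (Proc), 0.24 (Serpinf2), -0.42 (C8b) and 0.30 (Mbl2), with adjusted p of 0.348, 0.3, 0.427 and 0.206.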
